A study of Mus musculus with 2 samples.

Results

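Mfap4, Mfap5 and Fbln5 are the genes of elastic fibres and their microfibrils that the Xenium mouse panel carried, 3 of its 379 genes. They were taken by name from the decoded transcripts, keeping every transcript with a quality score of at least 20. Xenium In Situ decodes single RNA molecules of a chosen panel at their position in a tissue section and assigns them to segmented cell outlines. The sections, 5 µm thick and from paraffin blocks, came from shaved and depilated dorsal skin of C57BL/6 mice, collected at day 7. The mock group received PBS on the skin surface, and the SspA+HDM group received SspA together with HDM by the same route. SspA is the name of a staphylococcal protease and HDM the usual abbreviation of house dust mite, although the labels spell out neither. There was 1 sample per treatment. No test was therefore possible, every interval below is a 95% counting interval, and treatment cannot be told apart from the animal, the block or the section.

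Elastic fibres give skin its recoil. Each has a core of cross-linked elastin inside a sheath of fibrillin microfibrils, and fibroblasts lay both down, in fine vertical fibres under the epidermis and thicker ones deeper in the dermis. Mfap4 is a fibrinogen-domain glycoprotein that binds microfibrils and tropoelastin, Mfap5 (also called MAGP-2) is a small glycoprotein bound to fibrillin microfibrils, and Fbln5 (fibulin-5) is the adaptor that links elastin to microfibrils and cells during assembly. Elastin, the fibrillins and the lysyl oxidases were not among the panel genes.

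The mock section held 15932 segmented cells and the SspA+HDM section 46142, with 2325265 and 7929474 gene transcripts inside outlines. No cell name occurred in both. Each section was made of 2 strips of skin, 6.90 and 7.02 mm long in mock and 7.67 and 7.70 mm long in SspA+HDM. The outer epithelial layer was thicker in the SspA+HDM strips (77.6 and 81.7 µm against 41.9 and 41.0 µm), and so was the tissue between its inner edge and the skeletal muscle (244 and 246 µm against 120 and 121 µm). The strips of a section are not replicates, and the labels do not say whether they came from 1 animal. Levels are given as CPM, the transcripts of a gene scaled to one common total of panel transcripts, so a level moves with everything else the section holds. Probes differ between genes, so levels are compared between cells and sections and not between genes.

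As CPM over whole sections, Mfap4 and Fbln5 stood at nearly the same level in both treatments, and Mfap5 was lower in SspA+HDM. Mfap4 had 11833 transcripts in mock outlines and 45571 in SspA+HDM outlines, or 5202 and 4987 CPM in the mock strips and 5636 and 5839 CPM in the SspA+HDM strips. Fbln5 had 5331 and 20385 transcripts, or 2282 and 2301 CPM in the mock strips and 2604 and 2543 CPM in the SspA+HDM strips. For both genes each SspA+HDM strip lay above each mock strip, by little. The ratio of SspA+HDM over mock was 1.13 for Mfap4 (1.11 to 1.15) and 1.12 for Fbln5 (1.09 to 1.16). Mfap5 had 3318 and 7111 transcripts, or 1237 and 1598 CPM in the mock strips and 745 and 1022 CPM in the SspA+HDM strips. Its strips did not overlap either, in the opposite order, and the level was 1.59-fold lower in SspA+HDM (1.53 to 1.66).

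None of the 3 genes passed a 2-fold difference over the section. As background, 14.7% of the 346 measured panel genes (100 transcripts or more in either section) were higher by 2-fold or more and 12.7% lower by as much. The median log2 ratio of these genes was 0.05. The Mfap5 value depended on what was counted. It was a log2 ratio of -0.67 over the section, -0.23 without a deep cluster of cells described below, and -0.06 without epithelial cells. Without muscle, adipocyte and mural cells it was -1.59, past 2-fold. Per mm of strip the direction turned, with 198 and 278 Mfap5 transcripts per mm in the mock strips and 348 and 577 in the SspA+HDM strips. Fbln5 counted over nuclei alone also turned, to a log2 ratio of -0.14. Without the same muscle, adipocyte and mural cells the log2 ratio was -0.17 for Mfap4 and -0.03 for Fbln5. Other settings gave larger positive values for these genes. Without epithelial cells the log2 ratio was 0.85 for Mfap4 and 0.77 for Fbln5, and per mm of strip it was 1.80 and 1.79. In such sums a smaller share of the cells that carry a gene and less RNA per cell cannot be told apart.

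**Figure D1:**
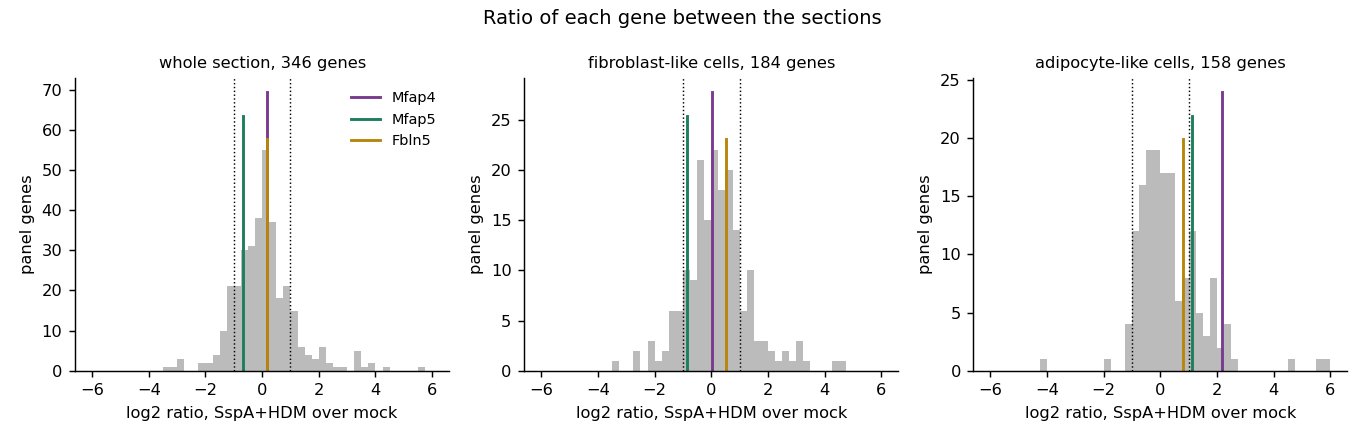
Histograms of the log2 ratio of each measured panel gene (SspA+HDM over mock, x axis) over the whole section, in fibroblast-like cells and in adipocyte-like cells, with the number of genes on the y axis; coloured lines mark the 3 genes and dotted lines a 2-fold difference. The genes lie near the middle in the first panel, apart on both sides in the second, and all to the right in the third, where Mfap4 reached a log2 ratio of 2.17.

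Cells were clustered without the 3 genes, so that no class rests on them, and named from marker lists. The fibroblast-like class held 1345 mock cells and 4157 SspA+HDM cells, and all 6 of its panel markers (Lum, Bgn, Dpt, Pi16, Igfbp6 and Pcolce2) were above 1000 CPM in both sections. It joined clusters of unlike weight: a Pi16/Pcolce2/Il1r2-led cluster gave 1174 of the mock cells and 312 of the SspA+HDM cells, and a Chodl/Tnfaip6/Serpina3n-led cluster gave 171 and 3845. The class held 38.9% of Mfap4 transcripts in mock and 34.8% in SspA+HDM, 25.9% and 32.8% of Fbln5, and 9.92% and 8.49% of Mfap5.

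Within fibroblast-like cells the 3 genes went separate ways. Mfap4 was at 47358 and 47853 CPM in the mock strips and at 47848 and 49715 CPM in the SspA+HDM strips, which overlap; the ratio was 1.03 (0.99 to 1.06). Fbln5 was at 14747 and 13867 CPM in the mock strips and at 21307 and 19930 CPM in the SspA+HDM strips, which do not overlap, a ratio of 1.44 (1.36 to 1.53). Mfap5 was at 3033 and 3776 CPM in the mock strips and at 1680 and 2026 CPM in the SspA+HDM strips, again without overlap, and its level was 1.83-fold lower in SspA+HDM (1.59 to 2.10). None passed 2-fold with these clusters. Among the 184 genes measured in this class 18.5% were higher by that much and 11.4% lower, with a median log2 ratio of 0.17. Clusters made with all genes, or at a finer resolution, gave Mfap5 log2 ratios of -1.71 and -1.68 against -0.87 here, which pass 2-fold, and the first gave Mfap4 -0.08 against 0.04. With the Retnla-led cluster described below added to the class, the log2 ratios were 0.75 for Mfap4, -1.66 for Mfap5 and 0.90 for Fbln5.

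The 2 fibroblast-like clusters differed from each other in SspA+HDM. In the Chodl/Tnfaip6/Serpina3n-led cluster, Mfap5 was at 3277 CPM in mock and 967 CPM in SspA+HDM, 3.39-fold lower (2.28 to 4.89). In the Pi16/Pcolce2/Il1r2-led cluster it was at 3420 and 11958 CPM, 3.50-fold higher (2.97 to 4.11). Fbln5 differed in the opposite direction in both, at 14644 and 21646 CPM in the first (ratio 1.48, 1.25 to 1.76) and 14268 and 8590 CPM in the second (1.66-fold lower, 1.44 to 1.92). In mock the clusters had the same Mfap5 and Fbln5 levels within counting error, and in SspA+HDM they were far apart. Mfap4 was at 35535 and 49232 CPM in the first cluster and at 48964 and 44311 CPM in the second. The 312 SspA+HDM cells of the Pi16-led cluster lay deep in the tissue, as described below, and the mock cells of that cluster did not. The other cluster differed in position too. Within the outer epithelial layer lay 51.5% of its mock cells, with 23 of its 32 mock Mfap5 transcripts, and 11.8% of its SspA+HDM cells. Mfap5 in that layer was at 4600 CPM in mock and 920 CPM in SspA+HDM. Deeper zones each held fewer than 50 of its mock cells, so no level was formed there.

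Other matrix genes, taken from lists, were compared in the same cells. Of 5 fibrillar matrix and proteoglycan genes on the panel (Col8a1, Lum, Bgn, Aspn and Dpt), 4 were measured in fibroblast-like cells and 1 was over 2-fold higher, with a median log2 ratio of 0.58. This was Aspn, asporin, a small proteoglycan of collagen, at 15527 CPM in mock and 38291 CPM in SspA+HDM (ratio 2.47, 2.34 to 2.60). Of 5 adventitial fibroblast genes (Pi16, Igfbp6, Pcolce2, Dpt and C3) 4 were over 2-fold lower, with a median of -1.36; Pi16, a surface protein of adventitial fibroblasts, was at 64614 and 10515 CPM. Of 5 matrix turnover genes (Mmp8, Mmp9, Timp3, Timp4 and Pcolce2), 3 were measured, with 1 higher, 1 lower and a median of -0.99. Beside these counts stand the 18.5% higher, 11.4% lower and median of 0.17 over all 184 measured genes. Over whole sections the fibrillar list had none past 2-fold and a median of 0.03, the adventitial list 3 lower and -1.62, and the turnover list 1 higher, 3 lower and -1.18, beside 14.7% higher, 12.7% lower and a median of 0.05 over all 346. In these cells Mfap5 was lower, as were 4 adventitial genes, while Dpt of that list was higher (ratio 1.25). Fbln5 was higher, as were Lum (ratio 1.22) and Bgn (ratio 1.78), both proteoglycans of the collagen matrix. Within the Pi16-led cluster these directions were not all shared. Mfap5 was higher there, as was Dpt, Igfbp6 was nearly level, and Pi16 (70336 and 46468 CPM) and Pcolce2 (30781 and 18125 CPM) were lower. Fbln5 was lower there, as was Lum (88496 and 68831 CPM), while Bgn was higher (53823 and 80183 CPM).

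Mfap5 was also high outside the fibroblast-like class. A cluster led by Retnla, C3, Pi16 and Igfbp6, kept out of the fibroblast-like class by a choice made after seeing the data, held 726 mock cells and 239 SspA+HDM cells. It lay mostly below the skeletal muscle, and all 6 fibroblast markers were above 1000 CPM in it, Pi16 at 134942 and 89487 CPM. Lyve1, Ttn and Actn3, genes of macrophages, vessels and muscle, were among its leading genes too. Mfap5 was at 12851 and 14479 CPM in the mock strips and at 14766 and 12095 CPM in the SspA+HDM strips, which overlap, a ratio of 0.92 (0.80 to 1.05). Fbln5 was at 5648 and 4567 CPM. Neither gene differed by 2-fold there, against 7.5% of 80 measured genes on the higher side and 1.25% on the lower. Mfap4 was at 1288 CPM in mock and 3498 CPM in SspA+HDM, from 96 and 72 transcripts, against 47606 and 48831 CPM in fibroblast-like cells. This cluster held 30.9% of the Mfap5 transcripts of the mock section and 3.66% of those in SspA+HDM, where the strips kept 55 and 184 of its cells against 325 and 400 in mock. How much tissue below the muscle was cut with each section was not tested.

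Among the classes, keratinocyte-like cells had the lowest Mfap5 level, at 93.7 and 9.06 CPM. Mural, lymphatic endothelium, blood endothelium and macrophage or monocyte-like cells stood between 752 and 1551 CPM in both sections. Their intervals overlap in mock, while in SspA+HDM blood endothelium (1468 CPM) lay above mural and macrophage or monocyte-like cells.

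Mfap4 was spread over more classes. The Coch/Wif1/Fibin-led cluster described below was at 28331 CPM in mock and 47370 CPM (44120 to 50796) in SspA+HDM, where its interval overlaps that of fibroblast-like cells. Mural cell-like cells were at 32458 CPM in mock and 25394 CPM in SspA+HDM, and macrophage or monocyte-like cells at 24454 and 22410 CPM. A Wif1/Acan-led cluster, with Sox2 and Wif1, known from the dermal papilla of the hair follicle, among its leading genes, was at 22141 CPM in its 58 mock cells and 33764 CPM in its 1577 SspA+HDM cells. Lymphatic endothelium-like cells were at 18274 and 17336 CPM, overlapping, and at 8710 and 6106 CPM over their nuclei alone. Fibroblast markers in these outlines summed to 104447 and 92209 CPM. Macrophage or monocyte-like outlines also held all 6 fibroblast markers above 1000 CPM, summing to 129350 and 135310 CPM against 279778 and 265466 CPM in fibroblast-like cells. Counted over their nuclei alone, Mfap4 was at 11619 and 13182 CPM, lower than over the whole outlines. The part of neighbouring fibroblasts in these levels was not tested.

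By class or cluster, Fbln5 was highest in a small Coch/Wif1/Fibin-led cluster (110 and 271 cells) at 33216 and 24827 CPM, above fibroblast-like cells in both sections. Lymphatic endothelium-like cells followed in mock at 15304 CPM, with an interval overlapping that of fibroblast-like cells, and were at 17234 CPM in SspA+HDM, where they lay below them. The Wif1/Acan-led cluster was at 6450 CPM in mock and 15510 CPM in SspA+HDM (ratio 2.40, 1.74 to 3.43). Blood endothelium-like cells were at 8439 and 8603 CPM and did not differ beyond counting error (ratio 1.02, 0.91 to 1.14). Keratinocyte-like cells held 306 and 90.3 CPM.

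**Figure D2:**
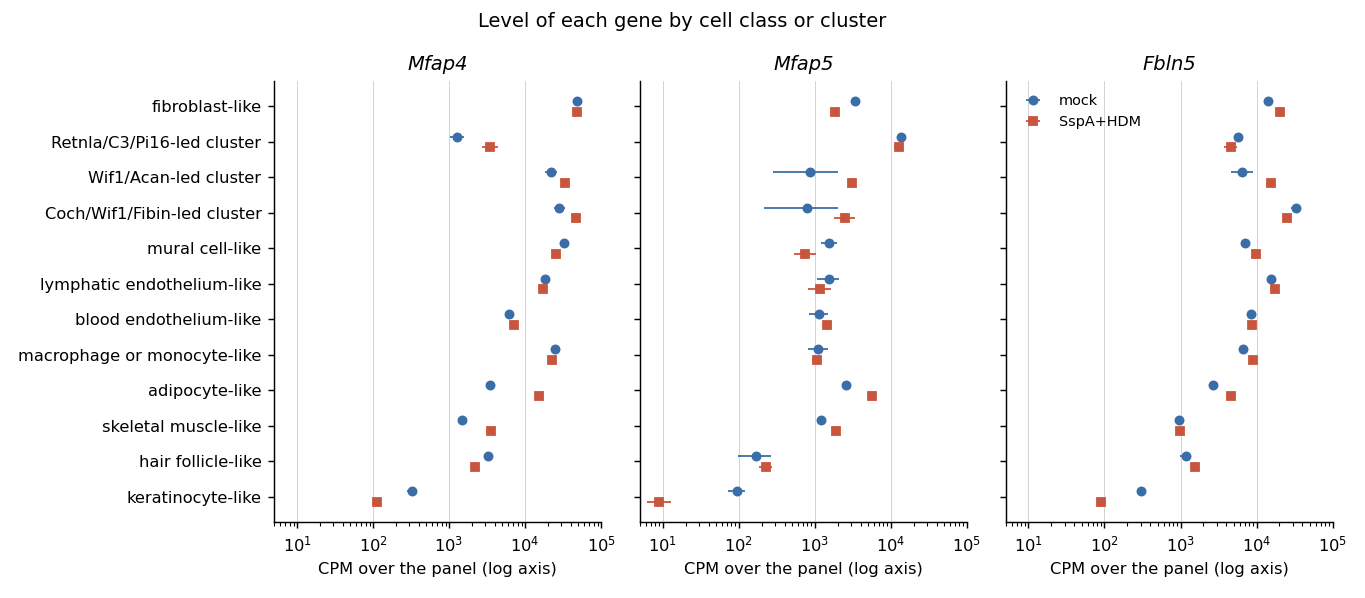
Level of Mfap4, Mfap5 and Fbln5 (CPM over the panel, log axis) in the named cell classes and 3 unnamed clusters of the mock and SspA+HDM sections; bars are exact Poisson 95% intervals. Mfap4 is highest in fibroblast-like cells, level with the Coch/Wif1/Fibin-led cluster (47370 CPM) in SspA+HDM, Mfap5 in the Retnla/C3/Pi16-led cluster and Fbln5 in the Coch/Wif1/Fibin-led cluster; keratinocyte-like cells are at the bottom for all 3 genes.

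All 3 genes were higher in adipocyte-like cells of the SspA+HDM section (922 mock cells and 1917 SspA+HDM cells). Mfap4 was at 3419 CPM in mock and 15430 CPM in SspA+HDM, a ratio of 4.51 (4.10 to 4.97). Mfap5 was at 2570 and 5629 CPM (ratio 2.19, 1.95 to 2.46), and Fbln5 at 2708 and 4664 CPM (ratio 1.72, 1.54 to 1.94). Mfap4 and Mfap5 thus passed 2-fold, as did 24.1% of 158 measured genes on the higher side and 3.8% on the lower, and Mfap4 ranked 9 by ratio. Over nuclei alone Mfap4 was at 4262 and 19286 CPM. The 6 fibroblast markers in these outlines summed to 119268 CPM in mock and 141118 CPM in SspA+HDM. Among them Bgn was at 16952 and 46785 CPM, and Pi16 at 15464 and 11822 CPM. The part of fibroblasts lying among fat cells was not tested.

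Skeletal muscle-like cells (2303 and 4280) showed the same order of ratios. Mfap4 was at 1478 and 3556 CPM (ratio 2.41, 2.25 to 2.57), Mfap5 at 1208 and 1886 CPM (ratio 1.56), and Fbln5 at 962 and 991 CPM. Mfap4 alone passed 2-fold here, as did 16.3% of 184 genes on the higher side and 1.63% on the lower. These Mfap5 levels are low per panel transcript and not per outline. Muscle-like outlines held a mean of 0.381 and 0.570 Mfap5 transcripts, against 0.245 and 0.145 in fibroblast-like ones, which were shallower (a median of 63 and 67 panel transcripts against 273 and 264). The muscle-like class held 26.5% of Mfap5 transcripts in mock and 34.3% in SspA+HDM. Fibroblast markers in muscle-like outlines summed to 33712 and 42544 CPM.

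Depth was measured from the inner edge of the outer epithelial layer, set to 0, to the midline of the skeletal muscle, set to 1. The median Mfap4 transcript lay at 0.275 in mock and 0.417 in SspA+HDM, or 73.4 and 191 µm below the surface. The median Fbln5 transcript lay at 0.400 and 0.363, or 90.2 and 194 µm. Mfap5 was the deepest of the 3 genes in both sections, at 1.02 and 0.789, or 165 and 303 µm. In relative depth Mfap4 was thus deeper in SspA+HDM and Mfap5 shallower, while in µm all were deeper, in tissue that was thicker. Without the Retnla-led cluster the Mfap5 medians were 0.757 and 0.776, nearly the same.

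The tissue between the epithelial layer and the muscle midline was divided into 4 equal zones, which hold fat and muscle as well as dermis. Adipocyte-like cells lay at a median depth of 0.629 in mock (quartiles 0.566 and 0.689) and 0.684 in SspA+HDM (0.615 and 0.760). Muscle-like cells had lower quartiles of 0.866 and 0.902. A zone therefore need not hold the same tissue in both sections. The level of Mfap4 over all cells had its maximum at different depths. In mock it was 19836 CPM in the outermost zone, 12006 in the next, then 4411 and 2093. In SspA+HDM it was 12157, 14208, 13084 and 6532 CPM over the same zones. The mock level was thus highest in the 2 outer zones, with 36.9% and 34.1% of the Mfap4 transcripts of clustered cells with a depth. The SspA+HDM level was similar through 3 zones. Mfap5 was low in the 2 outer zones of both sections (641 and 668 CPM in mock, 202 and 480 CPM in SspA+HDM). It was at 2357 CPM in the third zone in mock and 2733 CPM in SspA+HDM, and at 1590 and 3257 CPM in the fourth. Below the muscle midline lay 50.9% of Mfap5 transcripts in mock and 21.2% in SspA+HDM. Fbln5 was higher in SspA+HDM in each of the 4 zones, at 6365, 4847, 5652 and 2396 CPM against 5171, 3993, 3585 and 1799 CPM. It was lower in SspA+HDM in the epithelial layer (614 against 989 CPM) and below the muscle midline (911 against 1371 CPM).

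The same zones were compared within fibroblast-like cells, which takes out the mix of cell types as far as the class goes. It does not take out the mix of the fibroblast-like clusters. From the epithelial layer to zone 3, most mock cells were of the Pi16-led cluster and most SspA+HDM cells of the Chodl/Tnfaip6/Serpina3n-led cluster. In zone 1 these clusters held 460 and 43 cells in mock, and 35 and 1752 cells in SspA+HDM. The ratios by zone thus largely set 1 cluster against another. Mfap4 in the outermost zone was at 61223 CPM in mock and 44445 CPM in SspA+HDM, 1.38-fold lower (1.31 to 1.45). In the second zone it was at 56921 and 67551 CPM (ratio 1.19, 1.12 to 1.25), and in the third at 21940 and 51808 CPM (ratio 2.36, 2.07 to 2.71). Summed over the section, the equal class averages of Mfap4 were therefore made of a lower outer level and a higher inner level in SspA+HDM. The outer level was not lower along the whole strips, as described below. Within the epithelial layer Mfap4 was at 24368 and 16727 CPM, 1.46-fold lower (1.28 to 1.65). In each of zones 1 to 3 the SspA+HDM strips did not overlap the mock strips.

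Over the 4 zones, Mfap5 in fibroblast-like cells was higher with depth in SspA+HDM. It was at 594 CPM in the outermost zone, then 1127 and 5397, and 17111 CPM in the fourth, which held 99 cells. In mock it was at 2268, 3183 and 5572 CPM, and fewer than 50 cells lay in the fourth zone. Within the epithelial layer it was at 4431 CPM in mock and 916 CPM in SspA+HDM, 4.84-fold lower (3.15 to 7.61). Against mock it was 3.82-fold lower (2.78 to 5.24) in the outermost zone and 2.82-fold lower (2.12 to 3.76) in the second. In the third zone the levels did not differ beyond counting error (ratio 0.97, 0.72 to 1.32). This SspA+HDM level joined 321 cells of the Chodl/Tnfaip6/Serpina3n-led cluster at 2933 CPM with 86 cells of the Pi16-led cluster at 14228 CPM. Mock cells of the Pi16-led cluster were at 5779 CPM there. The SspA+HDM cells of the Pi16-led cluster had 27.0%, 29.4% and 26.6% of their number in zones 2, 3 and 4, and Mfap5 in them was at 4550, 14228 and 17687 CPM. Mock cells of that cluster had 39.3% in zone 1 and 0.598% in zone 4. The lower Mfap5 level of SspA+HDM fibroblast-like cells was thus measured in the outer zones.

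Fbln5 in fibroblast-like cells followed the opposite gradient. In SspA+HDM it was at 32141 CPM in cells placed within the epithelial layer, then 23326, 17807, 11738 and 5430 CPM in the 4 zones. In mock it was nearly level, at 14241, 14893, 15136 and 11405 CPM from the epithelial layer to the third zone. The ratio was 2.26 (1.97 to 2.59) in the epithelial layer, 1.57 (1.43 to 1.72) in the outermost zone, 1.18 (1.06 to 1.31) in the second and 1.03 (0.84 to 1.27) in the third. The layer was traced in steps of 50 µm, so its inner edge is coarse.

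**Figure D3:**
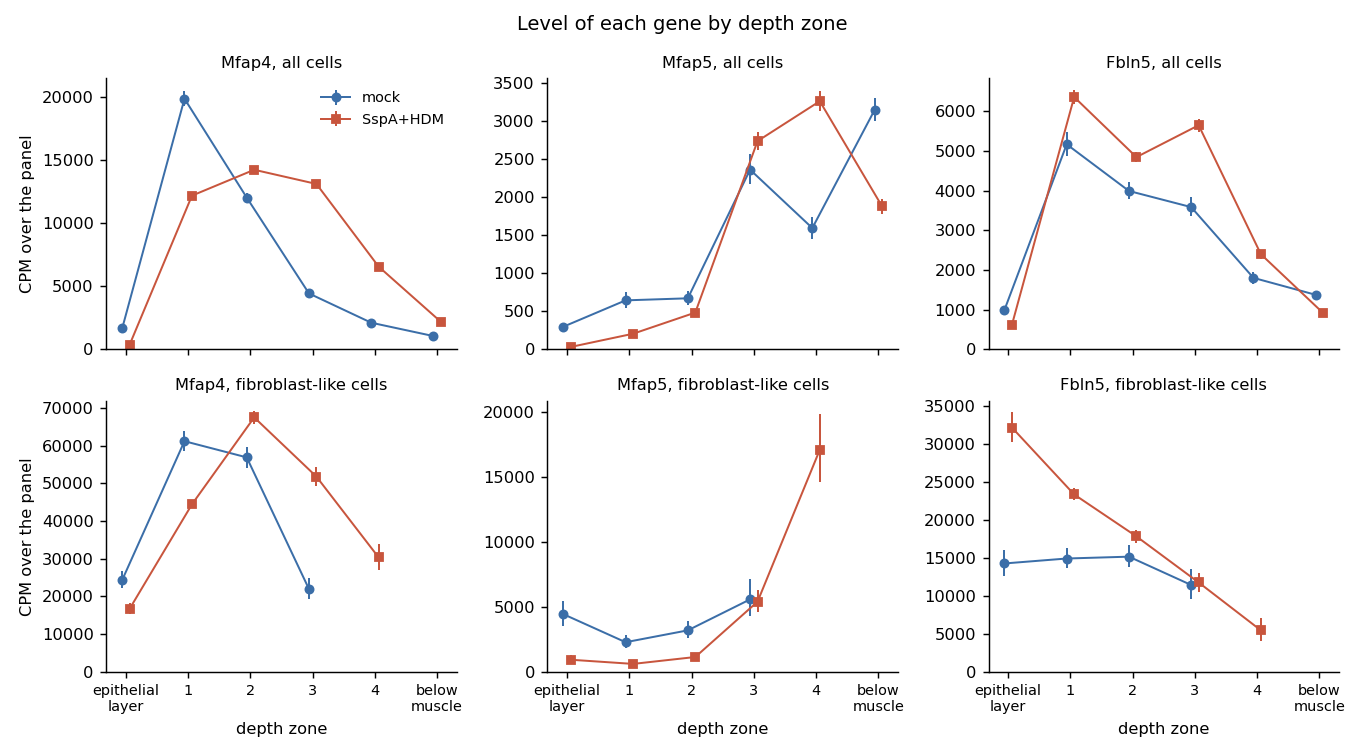
Level of each gene (CPM over the panel) by depth zone, from the outer epithelial layer through zones 1 to 4 to the tissue below the muscle midline, over all cells (top) and in fibroblast-like cells (bottom; zones with at least 50 such cells); bars are 95% Poisson intervals. In fibroblast-like cells of the SspA+HDM section Mfap5 climbs with depth to 17111 CPM and Fbln5 declines from 32141 to 5430 CPM, while in mock Fbln5 stays between 11405 and 15136 CPM.

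Levels also varied along the strips, and for Mfap4 this variation was larger than the difference between the sections. Each strip was divided into stretches of 1 mm from its start, and fibroblast-like cells were summed in each stretch, a measure added after the data had been seen. Mfap4 in the SspA+HDM strips ranged from 24113 to 72885 CPM over 16 stretches, with a median of 56059 CPM. In the mock strips it ranged from 34764 to 62167 CPM over 14 stretches, with a median of 50088 CPM. The SspA+HDM strips had the same profile: over the first 5 mm Mfap4 was at 66502, 52912, 71515, 72297 and 63392 CPM in one strip and at 65303, 48456, 69228, 72885 and 59207 CPM in the other. It was then at 39478 and 40676 CPM in the next mm, at 25375 and 26845 CPM in the one after it, and at 24113 and 24697 CPM in the last. Position by position, the second SspA+HDM strip stood at 0.92 to 1.06 times the first, and whether the strips are cuts of the same skin is not given in the labels. The mock strips also shared a profile, with 4 stretches in the middle at 46296 to 62167 CPM and the ends at 34764 to 37633 CPM.

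The far end of the SspA+HDM strips was where the epithelial layer was thickest. Its thickness was 59.6 to 80.7 µm over the first 5 mm of both strips, 103 and 104 µm in the sixth mm, 140 and 153 µm in the seventh and 101 and 106 µm in the eighth. In the 6 stretches with a layer of at least 100 µm, Mfap4 in fibroblast-like cells was at 30055 CPM in one strip and 31587 CPM in the other. In the 10 stretches with a thinner layer it was at 64939 and 63095 CPM. In the outermost zone it was at 23263 CPM under the thick layer and 65092 CPM under the thinner one, beside 61223 CPM in mock. The lower level of this zone in SspA+HDM was thus measured under the thick layer only. In the second zone the values were 45132 and 89684 CPM, and in the third 45463 and 55622 CPM. Across the 16 stretches the Pearson correlation of Mfap4 with layer thickness was -0.84, and that with the distance from the layer to the muscle -0.89. Across the 14 mock stretches, where the layer was 36.4 to 49.2 µm thick, these were -0.23 and -0.83. Stretches share an animal, a section and their neighbours, so these correlations are descriptions only.

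Fbln5 did not share that profile, and Mfap5 did not follow it position by position. Fbln5 under the thick layer was at 22243 and 21040 CPM in the strips, and under the thinner layer at 20408 and 19112 CPM, values close to each other. Its correlation with layer thickness across the SspA+HDM stretches was 0.11, and it ranged from 14684 to 26598 CPM against 8289 to 19904 CPM in mock, with overlap. Mfap5 was at 1369 and 1006 CPM under the thick layer and at 1978 and 2778 CPM under the thinner one, from 103 and 73 and from 155 and 273 transcripts. It was thus lower under the thick layer in both strips, and its correlation with layer thickness was -0.43. Both were below the mock class level of 3406 CPM. Lum in the same cells was at 115953 and 113375 CPM in the seventh mm and at 100076 and 106386 CPM in the eighth, within or above the 95105 to 112458 CPM of the first 5 mm. Bgn was at 101392 and 98556 CPM and at 95776 and 92869 CPM there, within the 84126 to 108487 CPM of the first 5 mm. The share of the Pi16-led cluster among fibroblast-like cells was 4.44% and 1.71% in the seventh mm and 5.99% and 11.6% in the first.

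The lower Mfap5 and the higher Fbln5 of SspA+HDM fibroblast-like cells were not found at every place along the strips either. Mfap5 ranged from 808 to 4405 CPM over the SspA+HDM stretches, with a median of 1562 CPM, and from 2131 to 5642 CPM over the mock stretches, with a median of 3053 CPM, so the ranges overlap. Its highest SspA+HDM values were in the second mm, at 4275 and 4405 CPM, where the Pi16-led cluster made up 20.3% and 20.9% of fibroblast-like cells. From the fourth mm on, the SspA+HDM stretches were all between 808 and 1641 CPM, below every mock stretch. Fbln5 in the first 2 mm of the SspA+HDM strips was at 14684 to 17848 CPM, within the mock range, and from the fourth to the seventh mm at 21413 to 26267 CPM, above every mock stretch. In the third mm it was at 26598 and 18127 CPM. In the eighth mm it was at 16019 and 15344 CPM, again within the mock range. Distances start at an arbitrary end of each strip, so a position in one section does not stand for the same place in the other.

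**Figure D4:**
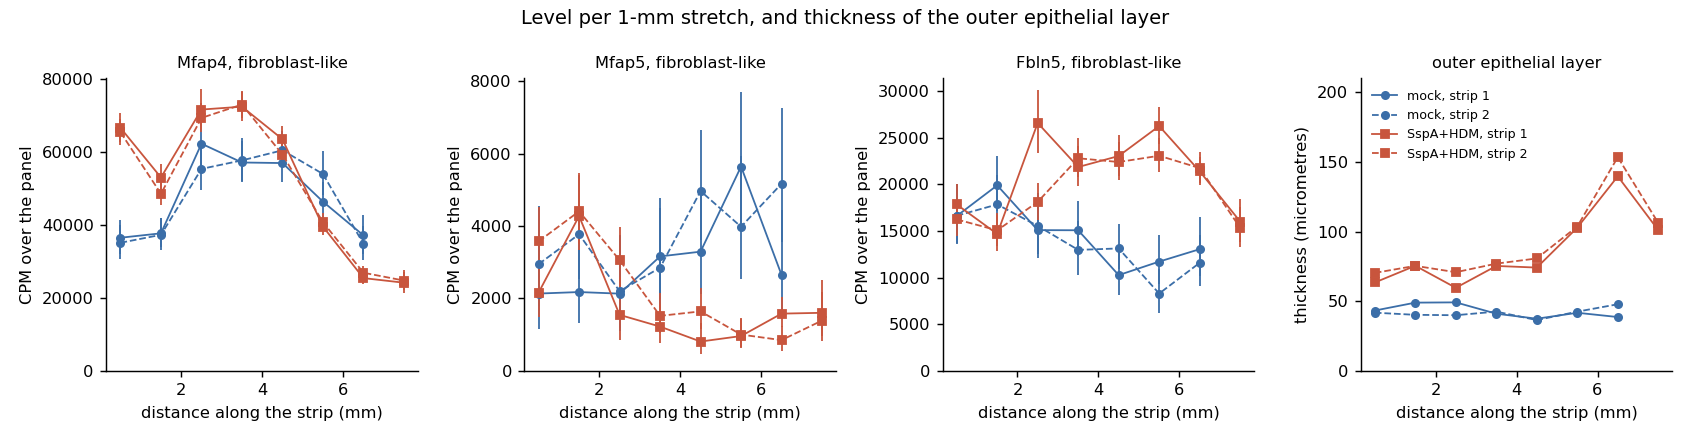
Level of each gene in fibroblast-like cells (CPM over the panel, bars are 95% Poisson intervals) and median thickness of the outer epithelial layer (µm) in 1-mm stretches, against distance along each of the 4 strips. Mfap4 in both SspA+HDM strips goes from 48456 to 72885 CPM over the first 5 mm down to 24113 to 26845 CPM over the last 2 mm, where the layer is 101 to 153 µm thick. Fbln5 is at 21413 and 21758 CPM in the seventh mm and at 16019 and 15344 CPM in the eighth.

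Cell by cell, cells with at least 50 transcripts were thinned to 50 so that depth could not set the share with a transcript. Thinning kept 916 of 1345 fibroblast-like cells in mock and 2887 of 4157 in SspA+HDM. Mfap4 was found in 72.8% (69.8 to 75.7) of these cells in mock and 76.9% (75.3 to 78.4) in SspA+HDM, and without thinning in 74.0% and 80.7%. Fbln5 was found in 46.8% (43.6 to 50.1) and 59.8% (57.9 to 61.5), and without thinning in 55.2% and 66.1%. Mfap5 was found in 14.7% (12.5 to 17.2) and 6.58% (5.70 to 7.55), and without thinning in 19.8% and 9.07%. Keratinocyte-like and skeletal muscle-like cells had been set as the background of stray transcripts. In thinned keratinocyte-like cells the shares were far smaller: 2.02% and 0.738% for Mfap4, 1.65% and 0.618% for Fbln5, and 0.398% and 0.0401% for Mfap5. In thinned muscle-like cells they were 7.12% and 16.6% for Mfap4, 6.07% and 6.18% for Fbln5, and 7.30% and 10.1% for Mfap5. The Mfap5 share of SspA+HDM fibroblast-like cells was thus below that of muscle-like cells. The part of stray transcripts in muscle-like outlines was not tested. Median depths before thinning were 63 and 67 transcripts in fibroblast-like cells and 166.5 and 247 in keratinocyte-like cells. In the Retnla-led cluster the thinned share was 48.1% and 44.1% for Mfap5 but 4.37% and 14.9% for Mfap4.

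Co-detection in single fibroblast-like cells was close to what the separate shares give for most pairs. Mfap4 and Fbln5 were found together in 326 mock cells where 312 would be expected from their shares (observed over expected 1.04, 0.95 to 1.14). In SspA+HDM they were together in 1296 cells (0.98, 0.94 to 1.02). For Mfap4 and Mfap5 the values were 0.92 (0.74 to 1.11) in mock and 1.02 (0.87 to 1.19) in SspA+HDM. The exception was Mfap5 with Fbln5, at 1.03 (0.80 to 1.30) in mock and 0.69 (0.54 to 0.85) in SspA+HDM, with 0.69 in each SspA+HDM strip. Of SspA+HDM cells with Mfap5, 41.1% also had Fbln5, against 61.1% of cells without Mfap5. When the expected number was summed over depth zones, the SspA+HDM value was 0.91 (0.72 to 1.13), and summed over the fibroblast-like clusters it was 0.83 (0.66 to 1.04). Without thinning it was 0.89, and over nuclei alone 1.07, so this shortfall depended on how cells were counted.

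Cells rich in a gene were those with at least 5 of its transcripts. A fixed count favours outlines with more panel transcripts. Their median was 273 and 264 in muscle-like cells, 130 in adipocyte-like cells of both sections, and 63 and 67 in fibroblast-like cells. Muscle-like cells made up 14.5% and 9.28% of all cells, adipocyte-like 5.79% and 4.15%, fibroblast-like 8.44% and 9.01%, and the Retnla-led cluster 4.56% and 0.518%. Mfap5-rich cells numbered 72 in mock and 161 in SspA+HDM. In mock 61.1% of them belonged to the Retnla-led cluster and 22.2% were muscle-like, none was fibroblast-like, and 83.3% lay below the muscle midline. In SspA+HDM 41.0% were adipocyte-like, 38.5% muscle-like and 7.45% fibroblast-like, and 21.9% lay below the midline. No Mfap4 transcript was found in 75.0% of the mock cells rich in Mfap5 and in 18.0% of those in SspA+HDM. Mfap4-rich cells numbered 735 and 2946, of which 53.3% and 45.1% were fibroblast-like, and 3.13% and 2.67% lay below the midline. Fbln5-rich cells numbered 93 and 628, with 36.6% and 53.3% fibroblast-like and a median relative depth of 0.321 and 0.200.

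**Figure D5:**
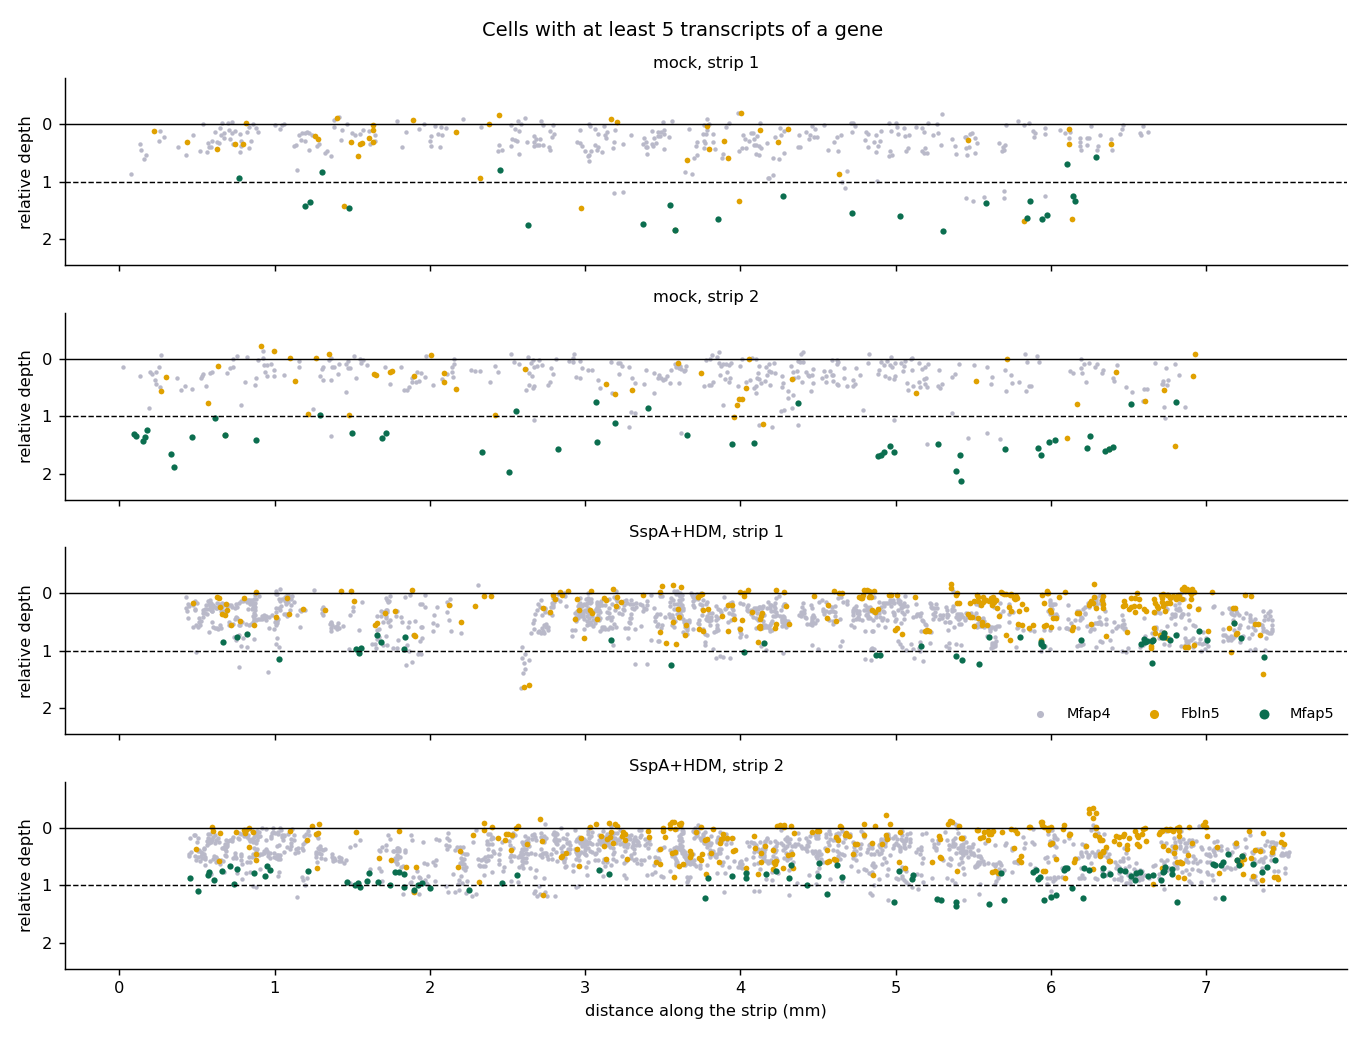
Position of every cell with at least 5 transcripts of Mfap4 (grey), Fbln5 (orange) or Mfap5 (green) along each strip (mm) and by relative depth, with the inner edge of the epithelial layer at 0 (solid line) and the muscle midline at 1 (dashed line). In mock 83.3% of Mfap5-rich cells lie below the midline, and in SspA+HDM 21.9%; the ends of the SspA+HDM strips have no depth where no muscle was found.

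Fibroblast-like cells with Mfap5 had other neighbours than those without it in SspA+HDM. Their median distance to the nearest adipocyte-like cell was 33.6 µm, against 92.7 µm for cells without Mfap5, and to the nearest keratinocyte-like cell 85.4 against 40.2 µm. In mock the distances were 38.3 against 44.0 µm and 37.7 against 36.1 µm, with little between them. Cells with Fbln5 lay on the other side in SspA+HDM, at 98.7 against 75.5 µm from adipocyte-like cells and 36.1 against 52.0 µm from keratinocyte-like cells. Cells with Mfap4 lay closer to fat (79.4 against 132 µm) and to muscle (134 against 198 µm) than cells without it. Distances were not compared at matched depth.

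The panel genes most like each gene over clusters were also found, by the Pearson correlation of log2(CPM + 50) over 63 points, each a cluster in 1 section, 29 of them from mock. Mfap4 was most like Lum (0.93), Bgn (0.92), Fbln5 (0.89), Nbl1 (0.87) and Tnfaip6 (0.86). Fbln5 was most like Lum (0.94), Eng (0.93), Nbl1 (0.92), Bgn (0.91) and Tnfaip6 (0.90); Eng, endoglin, is a receptor of endothelial cells. Mfap5 was most like Igfbp6 (0.94), Dpt (0.90), Nox4 (0.90), Serpinf1 (0.89) and Ccn3 (0.89), and shared none of its 5 with the others. Between the 3 genes the correlation was 0.89 for Mfap4 with Fbln5, 0.70 for Mfap5 with Fbln5 and 0.64 for Mfap4 with Mfap5. Clusters of the same section share its depth and stray transcripts, and these values describe them only.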

How the data were processed

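The authors deposited, per the file headers, a table of decoded transcripts (gene, position, cell, nucleus overlap and a quality score) and cell outlines for each section, used as deposited. Positions were taken as µm, and the score ran up to 40 without a filter at 20. Decoding and segmentation software is not given in the sources used here. Transcripts with a score of at least 20 were counted per outline and scaled to CPM over the panel. Cells with at least 20 transcripts were clustered without the 3 genes (leidenalg 0.10.2, scikit-learn 1.9.0; 30 principal components, 15 neighbours, resolution 1), and clusters with at least 3 fibroblast markers were clustered again. No doublet caller was run. A cluster was named "X-like" from at least 3 detected markers, 2 of them among its 15 leading genes, a scoring rule set after the data had been seen, which kept out a cluster with Pi16 and Retnla among its first 4 leading genes. Intervals are exact Poisson, Clopper-Pearson or conditional binomial (scipy 1.17.1) and cover counting error only. Ratios were formed where a class held 50 cells or more and a gene 100 transcripts or more in either section. Only the ratio step was run on simulated counts, for the whole-section comparison of 379 genes. Intervals held the true ratio for 96.7% of 303 measured genes. These counts were drawn with the counting error that the intervals assume, so this checks the calculation only. Clustering, naming, depth and co-detection were not simulated. Genes named are the 3 members, measured genes of 4 lists and the 5 most alike genes of each. Members and lists were chosen with earlier results of these data known. The values of 1 cluster are not reported here.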

Additional observations from a re-analysis of the deposited data

How the results depend on the processing

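Log2 ratios of SspA+HDM over mock depended on the denominator. Over whole sections they were 0.18 for Mfap4, -0.67 for Mfap5 and 0.17 for Fbln5. In that order, they were 0.13, -0.61 and 0.11 with no quality filter, 0.22, -0.81 and -0.14 over nuclei, 0.41, -0.43 and 0.40 per segmented cell, and 1.80, 0.96 and 1.79 per mm of strip. Without the 5 most abundant genes they were 0.11, -0.73 and 0.10, without muscle, adipocyte and mural classes -0.17, -1.59 and -0.027, without the Retnla-led cluster 0.14, -0.23 and 0.23, and without epithelial clusters 0.85, -0.063 and 0.77. A quality of at least 30 gave 0.21 for Mfap4. Leaving out each strip gave 0.14 to 0.20, -0.94 to -0.47 and 0.15 to 0.18.

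Within fibroblast-like cells the values were 0.04, -0.87 and 0.52. Clusters made with all panel genes gave -0.079 for Mfap4 and -1.71 for Mfap5, and resolution 2 gave -1.68 for Mfap5 and 0.65 for Fbln5. At resolution 0.5 fibroblasts and macrophages shared a cluster and no value was obtained. Over nuclei Mfap4 was 0.19 and Fbln5 0.34, per cell 0.16 and 0.64, and with the Retnla-led cluster added Mfap4, Mfap5 and Fbln5 were 0.75, -1.66 and 0.90. Leaving out each strip gave 0.0073 to 0.063, -1.02 to -0.70 and 0.48 to 0.57.

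Observed over expected co-detection over nuclei was 1.26 for Mfap4 with Mfap5 in SspA+HDM, 1.31 and 1.23 for Mfap4 with Fbln5 in mock and SspA+HDM, and 1.47 and 1.07 for Mfap5 with Fbln5. Without thinning, SspA+HDM gave 1.02 for Mfap4 with Fbln5 and 0.89 for Mfap5 with Fbln5, and the latter was 0.91 with the expected number summed over depth zones.

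Differences in median relative depth (SspA+HDM minus mock) were 0.14 for Mfap4, -0.23 for Mfap5 and -0.037 for Fbln5. They were 118, 138 and 104 in µm from the surface, and 0.060, 0.386 and -0.053 in fibroblast-like cells alone. Without the Retnla-led cluster Mfap5 was 0.019 and Fbln5 -0.0011, and a quality of at least 30 gave -0.288 for Mfap5. Leaving out each strip gave 0.126 to 0.154, -0.291 to -0.151 and -0.062 to -0.017.

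Of 126 alternatives, 59 stayed within counting error of the value reported, 58 moved beyond it and 9 changed sign. Depth in µm was counted here against relative depth, which is an unlike unit. It stands among the moved settings for Mfap4 and among the sign changes for Mfap5 and Fbln5, and does not measure movement of the same quantity. The settings with or without the Retnla-led cluster, without epithelial clusters, and with the expected co-detection summed over depth zones or over the fibroblast-like clusters were chosen after seeing the data. No paired analysis was possible because there was 1 sample per treatment. Counting intervals do not cover differences between animals or sections, and the depth axis rests on the traced muscle, which was absent at some strip ends. Classes below 50 cells and genes below 100 transcripts were not compared, so Mfap4 in the Retnla-led cluster has levels but no ratio.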

Other observations

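Some transcripts of the 3 genes lay outside every outline. For Mfap5 92.6% of mock transcripts were inside an outline and 98.3% of those in SspA+HDM, while for Mfap4 and Fbln5 the share was at least 97.0% in both sections. Over a nucleus lay 31.9% and 35.5% of the Mfap5 transcripts inside outlines, 23.4% and 29.5% of those of Mfap4, and 28.9% and 28.6% of those of Fbln5. Outlines with fewer than 20 transcripts, which were not clustered (626 in mock and 1860 in SspA+HDM), held Mfap4 at 21408 and 25434 CPM, Fbln5 at 7136 and 9160 CPM and Mfap5 at 1539 and 1906 CPM. In skeletal muscle-like outlines thinned to 50 transcripts, Mfap4 and Mfap5 were found together in 1.84 times the expected number in mock (1.14 to 2.81) and 2.19 times in SspA+HDM.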
